A study of Canis lupus familiaris with 27 samples.

Results

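Plasminogen activators and protease-activated receptors were described in 27 simple mammary carcinomas of dogs, 13 with and 14 without lymph node metastases. The set was defined by gene symbol and not by any measured value: PLAU, PLAUR, PLAT, SERPINE2, F3, F2R and F2RL1. Probe sets annotated with exactly these symbols were found for 6 of the 7 genes, 9 probe sets among the 42860 on the array that are not controls, and the 6 genes stand among 15115 genes in all. PLAUR, the urokinase receptor gene, carried no probe set of that symbol and is not analysed here. SERPINE2 was measured by 3 probe sets, F3 by 2 and the other genes by 1 each, and the probe set with the highest mean over the 27 tumors stands for its gene. No sequence of these genes was used here.

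Each tumor came from a separate dog and was hybridized to 1 Affymetrix canine array. Tumors of the metastatic group had spread to the inguinal lymph node in 12 dogs and to the axillary one in 1, 7 were of grade III and 6 of grade II by the sample labels, and the dogs were 12.4 ± 2.66 years old (SD, n = 13). Tumors of the non-metastatic group had reached no lymph node, 9 were of grade III and 5 of grade II, and the dogs were 11.4 ± 1.65 years old (SD, n = 14). All tumors were estrogen receptor negative by the labels, and the frozen tissue was macrodissected to a high share of carcinoma cells. The metastatic tumors measured 2.42 ± 1.32 cm and the non-metastatic tumors 5.21 ± 3.53 cm across (two-sided permutation test, p = 0.00558), since the study had selected the non-metastatic tumors for a larger diameter. Because whole tissue was measured, a lower level from fewer cells of a type and one from less RNA per cell cannot be told apart.

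Urokinase, encoded by PLAU, and tissue plasminogen activator, encoded by PLAT, are secreted serine proteases that turn plasminogen into plasmin, a protease that dissolves fibrin and helps to degrade extracellular matrix. Protease nexin-1, the product of SERPINE2, inhibits both activators and thrombin. Tissue factor, the product of F3, is the membrane receptor that starts coagulation by binding factor VII, and so leads to thrombin. Thrombin and related proteases also act as signals, because they cut the extracellular end of protease-activated receptors, G protein-coupled receptors that the new end then activates: F2R encodes the classical thrombin receptor, and F2RL1 a receptor cut by trypsin-like proteases and by the complex of tissue factor and factor VIIa. In mammary tumors these genes are known both from carcinoma cells and from the surrounding fibroblasts, vessels and leukocytes.

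Levels are on the log2 gcRMA scale, and those of different genes come from different probe sets and are not compared with each other. The 95th percentile of the 64 reporter control probe sets, which have no canine target and served as a measure of background on each array, was 3.40 ± 0.20 in metastatic and 3.90 ± 0.37 in non-metastatic tumors (SD, n = 13 and 14). SERPINE2, F3 and F2R lay above it in all 27 tumors, PLAU and PLAT in 26 each, and F2RL1 in 11. By SD over the 27 tumors PLAT, PLAU and F2RL1 were at the 96.8th, 96.4th and 96.2nd percentile of all 15115 genes, SERPINE2 at the 93.6th, F2R at the 89.3rd and F3 at the 79.2nd, so the 2 activators and F2RL1 were among the genes that differed most from tumor to tumor.

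Both plasminogen activators and F2RL1 were higher in metastatic tumors. PLAU, PLAT and F2RL1 rose by 1.81, 1.87 and 2.14 on the log2 scale, whereas SERPINE2, F2R and F3 did not pass the test. The folds of PLAU and PLAT were 3.50 and 3.65. F2RL1 was above background in 1 of 14 non-metastatic tumors, so its difference is given as fitted. The higher of value and reporter percentile on each non-metastatic array had a mean of 4.07. Against it the metastatic mean of F2RL1 was 1.89-fold higher, a comparison of means without an interval. Thus 3 of the 6 members were called in the limma fit over all probe sets (Benjamini-Hochberg adjusted p under 0.05), all of them higher, beside 19.2% of all genes called, 11.3% higher and 7.9% lower. So many genes were called that 3 of 6 is no measure of the members as a set.

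PLAU, which encodes urokinase, was at 5.30, 7.35 and 9.67 (lowest, median and highest log2 level) in metastatic tumors, against 2.93, 5.50 and 9.72 in non-metastatic tumors. Of the 13 metastatic tumors 12 lay above the non-metastatic median, but the highest level of all was that of a non-metastatic tumor, so the groups overlapped over their whole upper range. The means were 7.61 ± 1.37 and 5.80 ± 1.63 (SD, n = 13 and 14), a difference of 1.81 (SE 0.57, 95% interval 0.64 to 2.98, limma adjusted p = 0.0271). PLAT, the tissue plasminogen activator gene, was at 6.20, 9.31 and 11.46 in metastatic and at 2.86, 7.82 and 9.81 in non-metastatic tumors. In 5 metastatic tumors PLAT was above every non-metastatic tumor, 12 of 13 were above the non-metastatic median, and 1 of 14 non-metastatic tumors reached the metastatic median. The means of PLAT were 9.29 ± 1.43 and 7.42 ± 1.65, a difference of 1.87 (SE 0.59, 95% interval 0.66 to 3.07, adjusted p = 0.0265).

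F2RL1, the receptor for trypsin-like proteases, was at 2.46, 5.13 and 7.43 in metastatic tumors, against 2.41, 2.51 and 6.06 in non-metastatic tumors. It was near background in most tumors without metastases: 10 of 13 metastatic tumors and 1 of 14 non-metastatic tumors were above the reporter percentile of their own array. Differences between tumors below that percentile have no meaning as levels. The means were 4.99 ± 1.68 and 2.86 ± 0.96, a difference of 2.14 (SE 0.51, 95% interval 1.09 to 3.19, adjusted p = 0.00580). Of the 13 metastatic tumors 11 lay above the non-metastatic median, a value at background. Replicate 3 of the metastatic group, at 3.17, was among the 11 though below the reporter percentile of its array. The 1 non-metastatic tumor with clear signal, replicate 4 of its group, also had the highest non-metastatic level of PLAU, PLAT and SERPINE2 (9.72, 9.81 and 13.22).

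The inhibitor, the thrombin receptor and tissue factor did not pass the test. SERPINE2 was at 9.74, 12.79 and 15.06 in metastatic and at 10.28, 11.36 and 13.22 in non-metastatic tumors. Metastatic tumors reached both further up and further down: 4 were above and 2 below every non-metastatic tumor, and the SDs were 1.72 and 0.90. The difference of SERPINE2 was 1.09 (SE 0.51, adjusted p = 0.121), and its other probe sets, which followed the first across tumors (Pearson r of 0.98 each), gave 1.19 (adjusted p = 0.142) and 1.77 (adjusted p = 0.0770). F2R, the thrombin receptor gene, was at 6.00, 8.22 and 9.37 in metastatic tumors, against 4.48, 7.59 and 9.23 in non-metastatic tumors, with 11 of 13 above the non-metastatic median. Its difference was 0.95 (SE 0.42, 95% interval 0.09 to 1.82, adjusted p = 0.0994). Without replicate 13 of the metastatic group, its lowest tumor, the difference of F2R was 1.14 with an adjusted p of 0.0462.

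F3, the tissue factor gene, was at 9.12, 12.72 and 13.56 in metastatic tumors and at 10.91, 12.15 and 12.82 in non-metastatic tumors. It was the least variable member by SD, with 6 metastatic tumors above and 1 below every non-metastatic tumor, and means of 12.39 ± 1.16 and 12.09 ± 0.52. Its difference was 0.29 (SE 0.34, 95% interval -0.40 to 0.98, adjusted p = 0.529), and its second probe set, which followed the first with r = 0.86, gave -0.21 (adjusted p = 0.775).

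**Figure D1:**
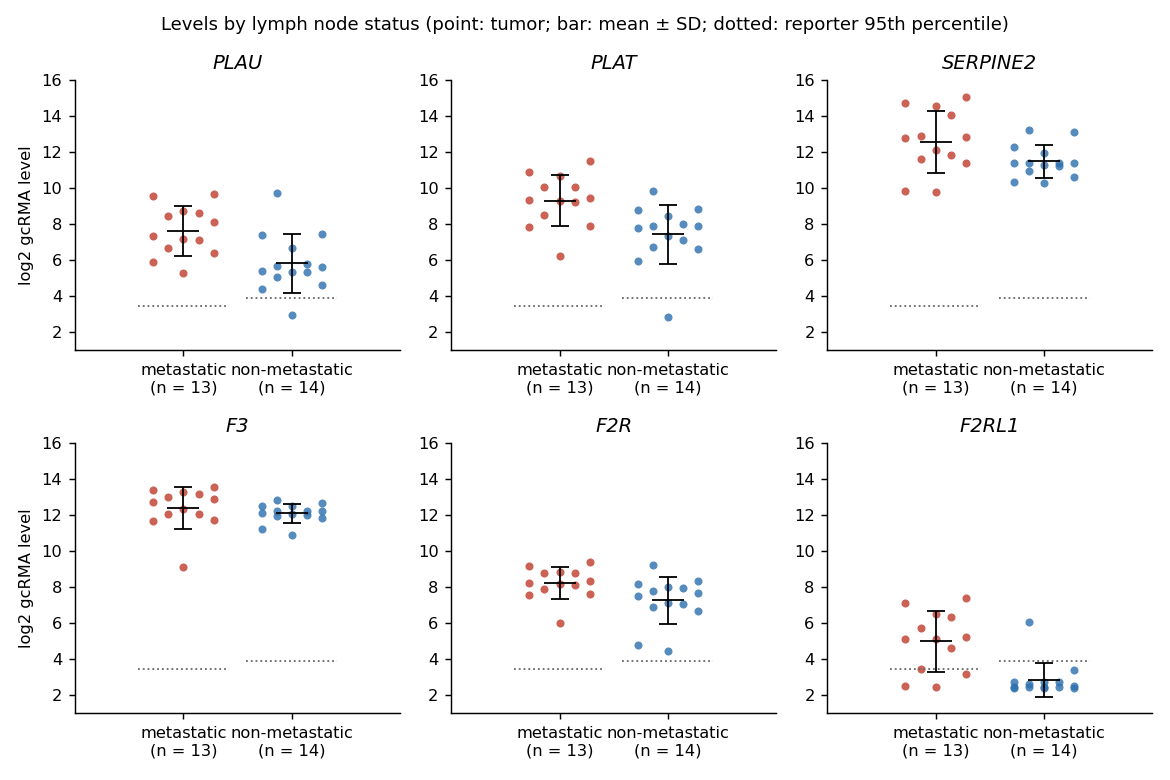
Log2 gcRMA level of the 6 genes (y axis) in metastatic (left, n = 13) and non-metastatic tumors (right, n = 14), with a point per tumor, the mean ± SD as black bars and the group's median reporter 95th percentile as a dotted line. F2RL1 was above the reporter percentile of its array in 10 metastatic tumors and in 1 non-metastatic tumor, while the 2 groups overlapped for PLAU and PLAT.

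The 3 calls held with grade, age or the fibroblast and matrix score, described with the stroma, in the fit and with any 1 tumor left out, where the adjusted p reached at most 0.0447 for PLAU, 0.0484 for PLAT and 0.0113 for F2RL1. With log2 size in the fit the differences of PLAU, PLAT and F2RL1 were 2.17, 1.82 and 2.04, about as large as without it, but none was called (adjusted p = 0.0701, 0.149 and 0.0640). The ending of the sample name, of unstated meaning, was a T in 11 of 13 metastatic and 0 of 14 non-metastatic tumors. With it in the fit the differences were 3.33, 2.92 and 3.18, and not called (adjusted p = 0.322, 0.461 and 0.297). As no non-metastatic name ends in T, these differences compare only the 2 metastatic tumors without T with the 14 non-metastatic tumors. The upper quartile of the array was 7.93 ± 0.04 in metastatic and 7.75 ± 0.15 in non-metastatic tumors, and with it the differences were 2.11, 0.94 and 1.86 (adjusted p = 0.105, 0.523 and 0.112), so that of PLAT was smaller. The GAPDH 3′ minus 5′ difference, a sign of RNA quality, was 1.84 ± 0.32 in metastatic and 1.32 ± 0.42 in non-metastatic tumors, and with it PLAT was not called (difference 2.25, adjusted p = 0.0556). After a second quantile normalization PLAU was not called (difference 1.64, adjusted p = 0.0596). The part of array quality and of the name ending in the differences was not tested further. Size went with the groups by selection.

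Some cell type scores differed between the groups as well, by two-sided permutation tests not adjusted for the number of scores. The p-value was 7.0e-05 for smooth muscle and myoepithelium, 0.0195 for basal epithelium and 0.0448 for endothelium. Platelet and macrophage scores were close behind (p = 0.0548 and 0.0670). A score was taken per tumor as the mean of the z-scored marker genes of a cell type, in SD units. Counts of marker genes stand beside 11.3% of all genes called higher and 7.9% called lower, and 1 of 8 basal genes is near that share. The smooth muscle and myoepithelium score, led by CALD1, ACTA2, TAGLN and MYLK, was -0.70 ± 0.86 in metastatic and 0.65 ± 0.60 in non-metastatic tumors (6 of 14 genes lower, 0 higher), and with it in the fit the differences of PLAU, PLAT and F2RL1 were 2.96, 2.53 and 2.55 (adjusted p = 0.0673, 0.127 and 0.0940). The endothelium score, led by PECAM1, EMCN, KDR and VWF, was 0.40 ± 1.29 and -0.37 ± 0.40 (4 of 17 genes higher, 1 lower), and with it in the fit the adjusted p was 0.0959 for PLAU, 0.0930 for PLAT and 0.0293 for F2RL1, at differences of 1.47 and 1.53 for the 2 activators. The basal epithelium score was -0.45 ± 1.04 and 0.42 ± 0.78 (1 of 8 genes lower, 0 higher), and the differences of the 3 genes were 2.68, 2.39 and 2.64 beside it, each with an adjusted p under 0.05. With status in the fit, the slopes of PLAU, PLAT and F2RL1 on the basal score were 1.01, 0.60 and 0.59 per SD. On the smooth muscle score they were 0.85, 0.49 and 0.30. None of these slopes passed, and the part of the scores in the differences was not tested further.

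Of 142 other genes listed for these pathways 122 were measured, and 13 of them were higher and 10 lower in metastatic tumors, with a median difference of 0.06 beside -0.00193 for all genes. These shares, 13 and 10 of 122, are close to the 11.3% and 7.9% of all genes, so the counts are no result about the pathways. All 13 that rose were above the reporter percentile in at least 14 of the 27 tumors, whereas 7 of the 10 that fell were not, among them SERPINC1, CPB2 and F13B, genes of plasma proteins made by the liver. The reporter percentile itself was lower in metastatic tumors, and its part in these small differences was not tested.

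Among 14 measured genes of plasminogen activation and its inhibitors 1 rose and 4 fell, beside 11.3% and 7.9% of all genes. PLGRKT, which encodes a plasminogen receptor of the cell surface, was at 7.48 ± 0.70 in metastatic and 6.18 ± 0.86 in non-metastatic tumors, a difference of 1.30 (adjusted p = 0.00441), and 13 of 13 metastatic tumors exceeded the median of the other group. KLKB1, the prekallikrein gene, was at 4.95 ± 2.61 and 8.36 ± 3.17, a difference of -3.41 (adjusted p = 0.0301), and its second probe set gave -2.49 (adjusted p = 0.0462). The other genes that fell, HGFAC, CPB2 and SERPINA5, were below the reporter percentile in most tumors. PLG itself, the plasminogen gene, was above the reporter percentile in 0 of 27 tumors.

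Of 21 measured plasminogen receptors, integrins and clearance receptors 2 rose and 1 fell by the main probe set, beside 11.3% and 7.9% of all genes. CDCP1, a transmembrane protein that serine proteases cut, was at 6.13 ± 1.30 in metastatic and 4.30 ± 0.91 in non-metastatic tumors (difference 1.83, adjusted p = 0.00457). HMGB1, a nuclear protein that also binds plasminogen system proteins outside the cell, was at 13.18 ± 0.34 and 12.72 ± 0.30 (difference 0.46, adjusted p = 0.0109). VTN, which fell by 0.12, was above the reporter percentile in 0 of 27 tumors. Probe sets other than the main one were called higher for ANXA2 (0.66, adjusted p = 0.00435), S100A10 (0.60, adjusted p = 0.0126) and ITGB2 (1.53, adjusted p = 0.0152). Such probe sets were called lower for ITGAV (-0.61, adjusted p = 0.0126) and LRP2 (-1.45, adjusted p = 0.0482). The main probe sets of these genes were not called.

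Of 21 measured coagulation and anticoagulant genes 3 rose and 5 fell, beside 11.3% and 7.9% of all genes. TFPI2, an inhibitor of plasmin and of tissue factor with factor VIIa, had the largest difference of the risen genes, 11.91 ± 1.09 in metastatic against 9.27 ± 1.67 in non-metastatic tumors (difference 2.64, SE 0.54, adjusted p = 0.00188, 13 of 13 above the non-metastatic median), and its second probe set gave 2.92 (adjusted p = 0.00285). PROS1, which encodes the anticoagulant protein S, was at 6.44 ± 0.80 and 5.00 ± 1.00 (difference 1.44, adjusted p = 0.00549). SERPINA1, which encodes the elastase inhibitor alpha-1 antitrypsin, was at 11.01 ± 0.99 and 9.77 ± 1.12 (difference 1.24, adjusted p = 0.0307). F11, the factor XI gene and the neighbour of KLKB1 in the dog annotation, was at 4.29 ± 1.04 and 6.66 ± 1.72. Its difference was -2.37 (adjusted p = 0.00429), and its 3 other probe sets shared the sign. The other genes that fell did so by less. FGG was at 3.54 and 3.83 (difference -0.28, adjusted p = 0.0132). FGA and F13B (-0.20 and -0.13) were at or below the reporter percentile in most tumors, as was SERPINC1.

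Of 25 measured further protease-activated receptors and proteases or inhibitors around them 1 rose and 0 fell, beside 11.3% and 7.9% of all genes. CTSS, the cathepsin S gene, rose, at 13.75 ± 0.58 in metastatic and 13.00 ± 0.80 in non-metastatic tumors (difference 0.75, adjusted p = 0.0471). Its second probe set was not called (0.64, adjusted p = 0.147). The remaining receptors of the family stood at 4.85 ± 1.23 and 4.72 ± 1.04 for F2RL2 (adjusted p = 0.833), and F2RL3 was above the reporter percentile in 0 tumors. ST14, the matriptase gene, whose product cuts the F2RL1 receptor, was at 5.00 ± 1.82 and 3.83 ± 0.61 (difference 1.16, adjusted p = 0.0941).

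Downstream, 3 of 21 signalling genes rose and 0 fell: RAB5A, TMED10 and RAC1, by 0.45, 0.35 and 0.24 (adjusted p = 0.0239, 0.0338 and 0.0396), beside 11.3% of all genes called higher. TMED10 binds protease-activated receptors in the Golgi, and RAB5A and RAC1 are small GTPases of endocytosis and of the actin cytoskeleton. Of 20 genes that these receptors are known to induce 3 rose and 0 fell by the main probe set, near the same share. CCN1 was not called by its main probe set (-0.35, adjusted p = 0.464). By its other probe set CCN1 was lower, at 6.17 in metastatic and 7.28 in non-metastatic tumors (difference -1.10, adjusted p = 0.000453). The chemokine gene CCL2 was at 12.01 ± 0.91 in metastatic and 10.92 ± 0.73 in non-metastatic tumors (difference 1.08, adjusted p = 0.0173), the growth factor gene HBEGF at 4.51 ± 1.00 and 3.70 ± 0.34 (difference 0.81, adjusted p = 0.0408) and the stress factor gene ATF3 at 6.03 ± 1.56 and 4.38 ± 1.59 (difference 1.65, adjusted p = 0.0490). The medians of these lists, 0.06 and 0.23, stand beside -0.00193 for all genes.

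Grade was compared over all 27 tumors with lymph node status in the fit. No member differed: 0 of 6 were called, beside 0% of all genes (0 of 15115 in limma, with 884 genes or 5.85% at an unadjusted p under 0.05). PLAT showed the largest value, 7.75 ± 1.83 in grade III and 9.16 ± 1.43 in grade II (SD, n = 16 and 11), a difference of -1.22 (SE 0.56, adjusted p = 0.781). The luminal epithelium score, led by EPCAM, KRT8, KRT18 and KRT7, was lower as well, -0.37 ± 1.06 in grade III and 0.54 ± 0.62 in grade II, and its part in the value of PLAT was not tested. SERPINE2 differed by 0.71, PLAU by 0.42, F2R by 0.34, F3 by -0.33 and F2RL1 by -0.36. The intervals of PLAU, -0.79 to 1.63, and of F2RL1, -1.45 to 0.73, did not reach their differences by lymph node status. Those of SERPINE2, F2R and F3, which ran to 1.77, 1.23 and 0.38, did. That of PLAT, -2.38 to -0.07 without adjustment over all probe sets, lay below 0, while its difference by lymph node status was positive. The differences by lymph node status have intervals of their own, so the sizes of the 2 effects were not compared.

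The difference by lymph node status ran the same way in both grades. For PLAU it was 2.08 (SE 0.76) in grade III and 1.52 (SE 0.92) in grade II, for PLAT 1.62 (SE 0.73) and 1.92 (SE 0.88), and for F2RL1 1.69 (SE 0.68) and 2.69 (SE 0.81). None passed within a grade (limma adjusted p of 0.101, 0.170 and 0.127 in grade III, where 4.09% of all genes passed, and of 0.405, 0.259 and 0.0783 in grade II, where 2.28% did). The interaction of status and grade was called for 0 of 6 members and 0% of all genes, with values of 0.55 for PLAU, -0.30 for PLAT and -1.003 for F2RL1. In metastatic grade II tumors F2RL1 was at 5.45 ± 2.05 (n = 6), in metastatic grade III tumors at 4.60 ± 1.32 (n = 7), and in non-metastatic tumors at 2.91 ± 1.19 in grade III (n = 9) and 2.76 ± 0.38 in grade II (n = 5).

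**Figure D2:**
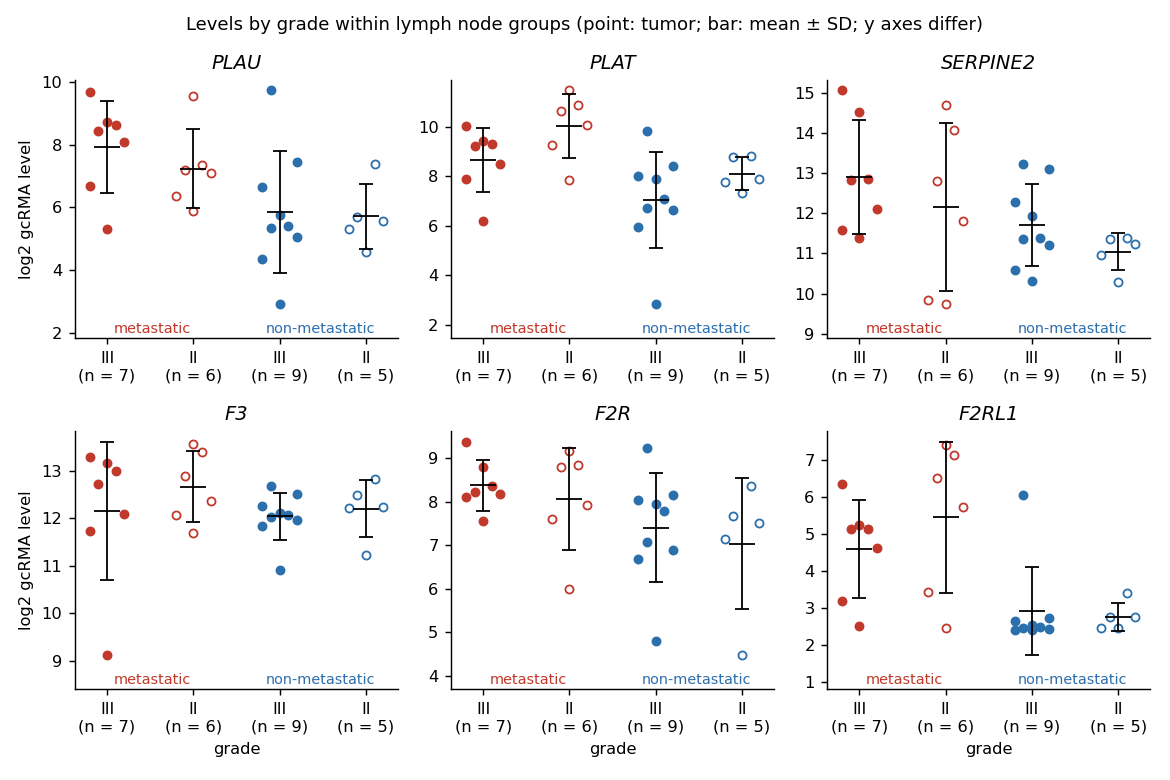
Log2 gcRMA level of the 6 genes (y axis, own range per panel) by grade, III left of II, in metastatic (red) and non-metastatic tumors (blue), with a point per tumor and the mean ± SD. PLAT averaged 7.75 in grade III and 9.16 in grade II tumors, which did not pass the test.

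Tumor size was read as the slope per doubling of the diameter, with status in the fit. None of the 6 members was called, beside 0% of all genes (0 of 15115, with 1171 or 7.75% at an unadjusted p under 0.05). The largest slope was that of F2R, 0.42 (SE 0.23, adjusted p = 0.645), and it lay in the non-metastatic tumors, 0.92 per doubling (SE 0.34, adjusted p = 0.414), against 0.04 (SE 0.29) in the metastatic tumors. The difference of the slopes of F2R, -0.88 (adjusted p = 0.688), did not pass, and 0 of 6 members passed that test or either slope within a group, beside 0.00662% of all genes for the difference, 0.198% in metastatic and 0% in non-metastatic tumors. The slope of PLAU was 0.73 in metastatic tumors, against -0.20 in non-metastatic tumors, and that of F3 was 0.40 and -0.40. Neither difference passed (0.92, adjusted p = 0.837, and 0.80, adjusted p = 0.633). PLAT, SERPINE2 and F2RL1 had slopes of -0.04, -0.02 and -0.09 over all tumors, with 95% intervals within -0.75 and 0.67.

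**Figure D3:**
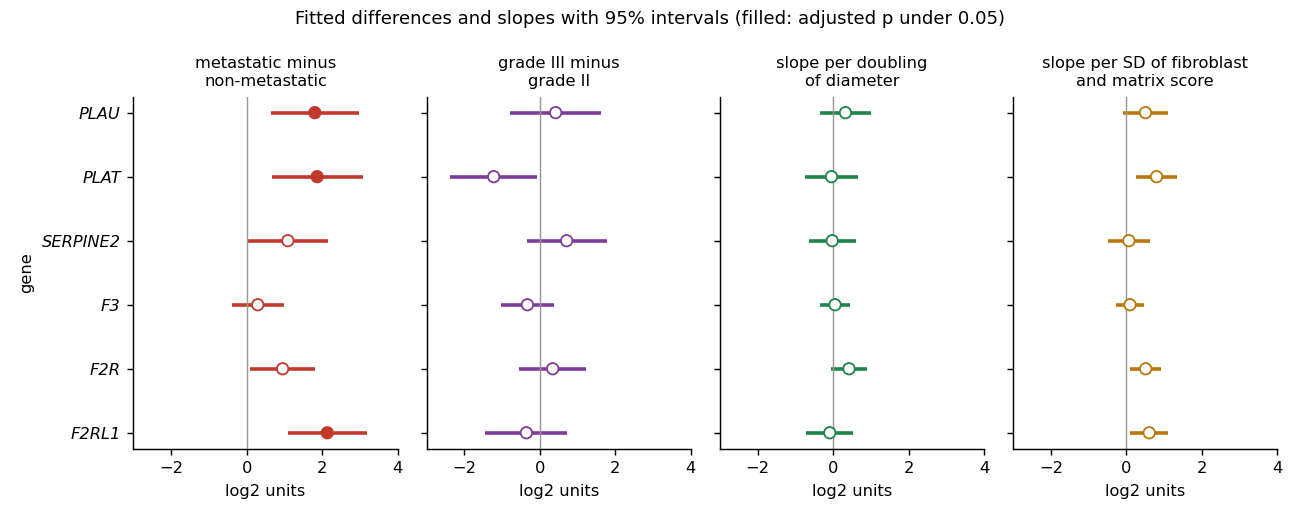
Fitted log2 difference or slope with its 95% interval (x axis, log2 units) for the 6 genes (y axis) in 4 limma fits over 27 tumors, filled where the adjusted p was under 0.05. PLAU, PLAT and F2RL1 were filled for lymph node status, and no gene was for grade, tumor size or the fibroblast and matrix score.

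The relation to stroma was read from 31 measured genes of fibroblasts and matrix, led by SPARC, COL1A1, COL3A1 and COL1A2, whose score was 0.23 ± 1.12 in metastatic and -0.22 ± 0.86 in non-metastatic tumors (permutation test, p = 0.251). Both receptors and both activators had larger slopes on it than the inhibitor and tissue factor, but 0 of 6 members passed, beside 2.47% of all genes (1.6% with a positive slope, 0.873% with a negative one). With status in the fit the slopes per SD of the score were 0.80 for PLAT (SE 0.27, adjusted p = 0.125), 0.61 for F2RL1 (SE 0.24, adjusted p = 0.223), 0.51 for F2R (SE 0.20, adjusted p = 0.204) and 0.51 for PLAU (SE 0.29, adjusted p = 0.476). F3 and SERPINE2 had slopes of 0.10 and 0.07.

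The slope of PLAT rested in part on single tumors. Replicate 8 of the non-metastatic group had both the lowest PLAT level, 2.86, and the lowest score, and without it the slope was 0.46 (adjusted p = 0.540). Replicate 12 of that group had a high score and a low PLAT level, 5.94, and without it the slope was 0.97 (adjusted p = 0.0444). Replicate 12 also stood apart by the lowest luminal score of its group, -3.10, and by high macrophage and T cell scores of 2.02 and 2.36.

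Gene by gene, and as a description over 27 tumors with the group means taken off, PLAT, F2R and F2RL1 correlated positively with all 31 stromal genes (median r of 0.39, 0.34 and 0.37), PLAU with 30 (0.29), F3 with 25 (0.09) and SERPINE2 with 20 (0.05). The median r with all genes lay between -0.09 and 0.00 for each. The highest single values were 0.71 of F2R with COL6A3, 0.62 of PLAT with THY1 and 0.62 of F2RL1 with TIMP2, and 7 of the 31 stromal genes were among the 100 genes most like F2R. All values share the array and its normalization.

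**Figure D4:**
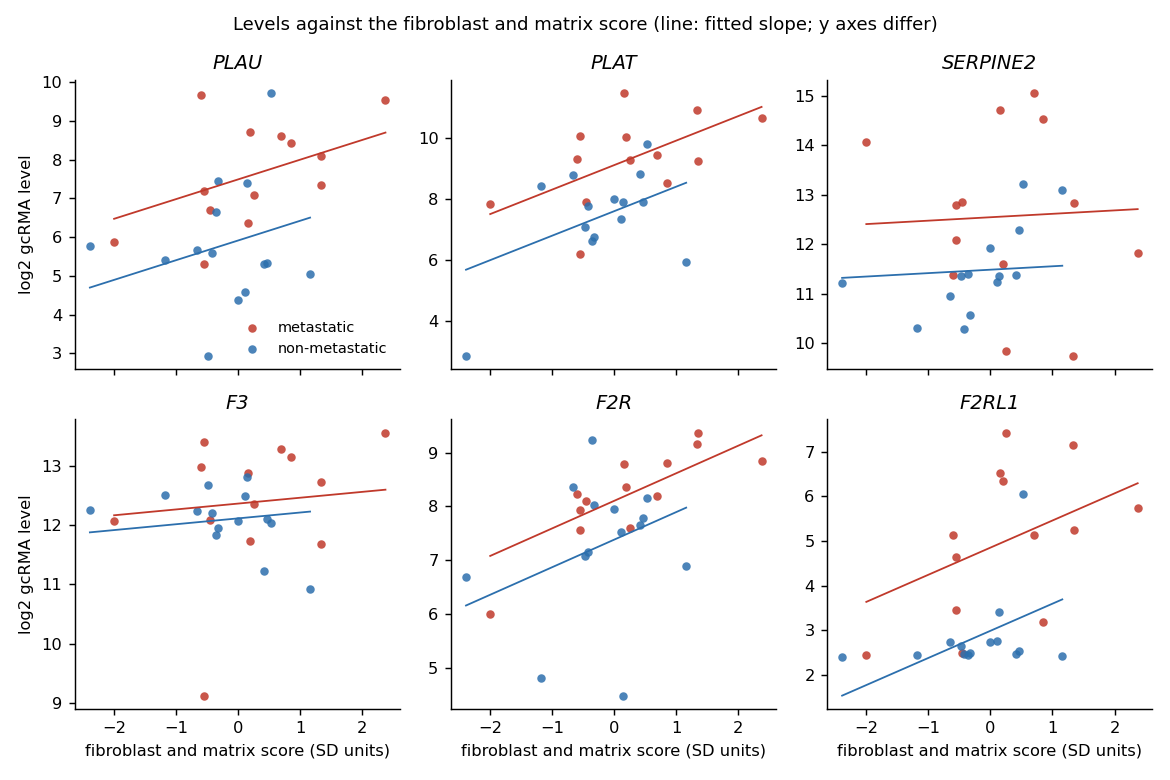
Log2 gcRMA level of the 6 genes (y axis, own range per panel) against the fibroblast and matrix score (x axis, SD units) in metastatic (red, n = 13) and non-metastatic tumors (blue, n = 14), with the common fitted slope drawn through each group. The slopes were 0.80 for PLAT, 0.61 for F2RL1, 0.51 for F2R and for PLAU, 0.10 for F3 and 0.07 for SERPINE2, and none passed the test.

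Of the 122 other pathway genes 8 had a positive slope on this score that passed and 0 a negative one, beside 1.6% and 0.873% of all genes. They were the integrins ITGB5 and ITGA5 (0.62 and 0.82 per SD, adjusted p = 0.00282 and 0.00719), the clearance receptor LRP1 (0.65, adjusted p = 0.0216), the proteases MMP13, MMP2 and KLK4 (1.74, 0.74 and 0.52), of which MMP2 is itself in the score, the G protein subunit GNAI2 (0.40, adjusted p = 0.00222) and the matricellular gene CCN2 (0.56, adjusted p = 0.0183). LRP1 takes up complexes of plasminogen activators with their inhibitors.

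Among the 10 other cell type scores the luminal one was called for PLAT, at 0.92 per SD (SE 0.24, limma adjusted p = 0.0131), the only member called in a fit where 19.5% of all genes passed, 5.21% with a positive slope. The slope was 0.79 to 1.18 with any 1 tumor left out and was called each time, but not with the upper quartile of the array in the fit (0.91, adjusted p = 0.120), within metastatic tumors (1.31, adjusted p = 0.288) or within non-metastatic tumors (0.75, adjusted p = 0.138). The luminal score itself did not separate the lymph node groups, at 0.10 ± 0.81 in metastatic and -0.09 ± 1.17 in non-metastatic tumors. PLAU had its largest slope on the basal epithelium score, 1.01 (SE 0.26, adjusted p = 0.180), led by ITGA6, LAMA3, ITGB4 and KRT17. No main probe set of a member was called on the other 9 scores. The share of all genes called was 0.721% for endothelium, 0.37% for smooth muscle and myoepithelium, 0.0198% for basal epithelium, 1.6% for macrophages, 0% for neutrophils, 3.16% for T cells, 0.741% for B and plasma cells, 0.384% for adipocytes and 20.5% for platelets.

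The second probe set of F3 was called on the luminal score (0.73, adjusted p = 0.0183) and on the platelet score (-0.90, adjusted p = 0.00441), where the main probe set of F3 gave 0.40 and -0.42 and did not pass. The luminal call was lost without replicate 12 of the non-metastatic group (adjusted p = 0.117), with the upper quartile (0.0831) and within metastatic tumors (0.618), and the platelet call within metastatic (0.0984) and within non-metastatic tumors (0.0511). Of the 5 measured platelet genes only PPBP, at 7.50, was above the reporter percentile in all tumors, and ITGA2B averaged 2.34, so that score held mostly values near background.

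**Figure D5:**
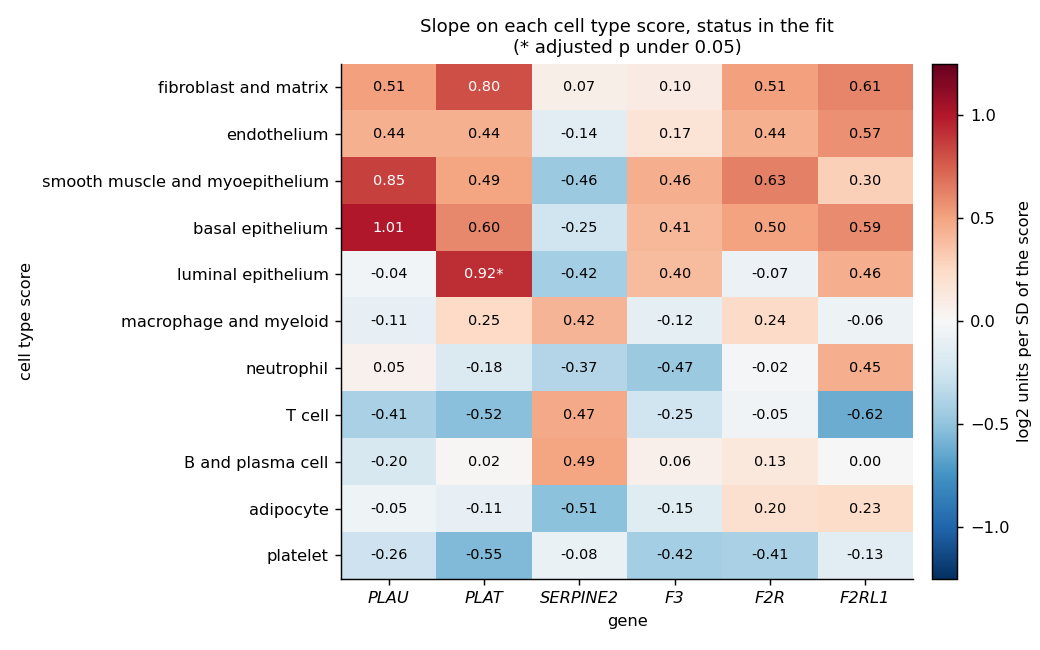
Slope of each gene (x axis) per SD of each cell type score (y axis) in log2 units, with lymph node status in the fit, in colour and as a number, with a star where the adjusted p was under 0.05. PLAT on the luminal epithelium score, 0.92, was the only starred value.

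Over both groups the members were at most moderately correlated with each other, and some pairs were more so in metastatic tumors. As a description over 27 tumors with group means taken off, the highest Pearson r between members was 0.52 for PLAT and F2RL1, followed by 0.41 for PLAU and F2RL1, 0.38 for PLAT and F3, 0.34 for PLAU and F3 and 0.32 for PLAU and PLAT. Both F3 pairs had their correlation in metastatic tumors, 0.62 with PLAT and 0.63 with PLAU, against 0.07 and -0.05 in non-metastatic tumors. PLAT and PLAU also had higher r with F2R in metastatic tumors, 0.56 and 0.51, against 0.08 and 0.07. PLAU and F2RL1 went the other way, at 0.24 in metastatic and 0.71 in non-metastatic tumors. These differences between the groups were not tested. SERPINE2 and F2RL1 had -0.29 over both groups, but -0.56 in metastatic and 0.54 in non-metastatic tumors, where 1 tumor had high F2RL1. F2R and F2RL1 lie close to each other on chromosome 3 in the dog annotation, with F2RL2 nearby, and had r = 0.24.

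The genes most like each member by the same measure were mostly outside the pathway. For PLAU they were UPK1B, IER5L and ENO1 (0.71, 0.69 and 0.69), the last a glycolytic enzyme that also binds plasminogen at the cell surface. For PLAT they were EVA1C, TMEM43 and the epithelial integrin gene ITGB6 (0.87, 0.84 and 0.82), the closest likeness of any member. SERPINE2 was most like RECK, a membrane inhibitor of metalloproteases, SLC35F1 and LDHA (0.74, 0.68 and 0.67). F2R was most like the collagen gene COL6A3, EGFLAM and EI24 (0.71, 0.67 and 0.66). F2RL1 was most like ABLIM3, PDE8B and LMO7 (0.78, 0.78 and 0.74), and F3 like INPP5F, RTN4 and ACTR1A (0.74, 0.74 and 0.72).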

How the data were processed

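The deposited values are log2 signals of Canine Genome 2.0 arrays that the authors summarized in Partek by gcRMA, with background correction, normalization to equal quantiles and median polish, and they were not scaled again. Array number limits precision. Groups, grade and size came from the sample labels, and grade differs from the study's table for 1 tumor. After 175 of 43035 probe sets were left out as controls, limma 3.58.1 in R 4.3.3 (lmFit, eBayes) was fitted over 42860, Benjamini-Hochberg adjusted over all of them and called at 0.05. Symbols came from the platform annotation. The members, pathway and marker lists and tests were chosen with earlier results of these data known. Named are all members, per list up to 4 called genes a direction (2 in other fits), the 4 brightest markers, 3 most alike genes per member, and genes central to a list (PLG, F2RL2, F2RL3, ST14), added after their values were seen. Permutation tests used 1e+05 resamples. Scripts were tested on simulated data. The study's fold changes and p-values were not used, and qPCR was not analysed here. A further gene is not reported here.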

Additional observations from a re-analysis of the deposited data

Results flagged for a closer look

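Dixon's test at 95% was applied to 24 groups of 5 to 9 tumors, 6 genes by lymph node status and grade. In it 3 tumors lay farther from the rest than allowed, and chance flags about 1 in 20 groups. F2RL1 in the 9 non-metastatic grade III tumors was at 6.06 in replicate 4 of the non-metastatic group, and the next tumor was at 2.73. F3 in the 7 metastatic grade III tumors was at 9.12 in replicate 12 of the metastatic group, and the next was at 11.73. F3 in the 9 non-metastatic grade III tumors was at 10.91 in replicate 12 of the non-metastatic group, and the next was at 11.84.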

How the results depend on the processing

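The differences of PLAU, PLAT and F2RL1 by lymph node status kept their sign in all alternatives and, among the covariates, the difference of PLAT with the upper quartile (0.94) was the smallest, but the calls did not hold. The differences were as large or larger with the smooth muscle score (2.96, 2.53 and 2.55), and about as large with log2 size (2.17, 1.82 and 2.04). With the name ending they were 3.33, 2.92 and 3.18, but there they compare only 2 metastatic tumors with the 14 non-metastatic tumors. Of 3 members called, 0 were with the upper quartile, the name ending, log2 size, or the smooth muscle and myoepithelium score in the fit. The count was also 0 with upper quartile and GAPDH 3′ minus 5′ together, within grade II and within grade III. It was 0 as well at the study's cutoffs (adjusted p 0.001, fold 1.7), applied here to the limma adjusted p. The study itself used ANOVA with q-values and listed F2RL1 as up-regulated in metastatic tumors. The count was 1 with the endothelium score and 3 to 4 without 1 tumor. The GAPDH difference alone (1.84 ± 0.32 in metastatic, 1.32 ± 0.42 in non-metastatic tumors, not seen in the second GAPDH pair) left 2 calls, PLAT lost, as did a second quantile normalization, PLAU lost. The basal score gave 4, F2R added (adjusted p = 0.0495). For grade, F2RL1 turned to 0.14 within non-metastatic tumors. The small size slopes turned sign often. PLAT was 0.00307 with array weights, 0.12 with the upper quartile, 0.16 with grade and 0.0716 within metastatic tumors. SERPINE2 was 0.36 with array weights, 0.0358 with the name ending, 0.0606 by size in cm, 0.0314 by rank and 0.47 within non-metastatic tumors. F3 was -0.00760 over the mean of its probe sets, -0.0270 by size in cm, -0.0416 without status and -0.40 within non-metastatic tumors. F2RL1 was 0.00502 by rank, and PLAU -0.25 without status and -0.20 within non-metastatic tumors. Without 1 tumor the size slopes ran from -0.22 to 0.25 (PLAT), -0.22 to 0.27 (SERPINE2), -0.24 to 0.10 (F2RL1) and -0.13 to 0.14 (F3). On the fibroblast and matrix score 1 member, F2R, was called with array weights (0.71) and within metastatic tumors (0.65), and 0 to 1 without 1 tumor. SERPINE2 turned to -0.31 within metastatic and F3 to -0.29 within non-metastatic tumors, and without 1 tumor they ran from -0.0311 to 0.28 and from -0.0150 to 0.18. On the luminal score the count of 1 was 0 with the upper quartile and within metastatic tumors and 1 to 2 without 1 tumor, and within non-metastatic tumors the 1 member called was F3 (0.34, adjusted p = 0.0183), not PLAT, and on the platelet score 0 to 1. The causes were not tested. The endothelium, basal and luminal scores as covariates, upper quartile with GAPDH, the lung metastasis tumor left out, and all alternatives of the luminal and platelet scores were chosen after seeing the data. No paired analysis was possible because each tumor came from a separate dog.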

Other observations

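By the study's text, 1 dog without lymph node metastases had lung metastases later, and its tumor is replicate 12 of the non-metastatic group (grade III, 7 cm). In that group of 14 its F3 level of 10.91 ranked 14th from the highest, its PLAT level of 5.94 ranked 13th, its PLAU level of 5.05 and its F2R level of 6.89 ranked 11th each, and its SERPINE2 level of 13.10 ranked 2nd, while F2RL1 was not above the reporter percentile. In the metastatic group, replicate 12 had the lowest levels of PLAU, PLAT and F3, at 5.30, 6.20 and 9.12.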
